A study of Rattus norvegicus with 2 samples.

Results

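The genes described here take fatty acids into the muscle fibre and burn them in its mitochondria. They are 29 genes, chosen by symbol and grouped by step into uptake, activation and carnitine transfer, beta-oxidation, electron transfer, and regulation, out of 13337 genes with a named probe on the array. Of the 29, 28 had a named probe, and 25 were detected on both arrays, where detected means a detection p under 0.01. The thioesterase genes Acot1 and Acot2 and the receptor gene Ppara were detected on neither array, and Acacb was without a named probe here. No member was detected on 1 array only.

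RNA came from skeletal muscle of male Wistar rats aged 8 to 10 weeks and made diabetic with streptozotocin, which kills the cells that make insulin. The samples were labelled Mock and EA. EA stands for electroacupuncture, and its needles, set at the ST36 point of the lower leg, were left for 5 min and then carried current for 60 min at 15 Hz and 10 mA. The treatment is described in the same words for both samples. The labels do not state the handling of the Mock animals, the muscle, the time after stimulation or the number of rats in a sample. Each group had 1 array, so the differences below have neither an error nor a test. Electroacupuncture and anything else that set these samples apart cannot be told apart.

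Fatty acids are freed from circulating lipoproteins by lipoprotein lipase, cross the membrane with the help of CD36 and are held in the cytosol by a binding protein. They are activated to acyl-CoA, passed into the mitochondrion by the carnitine shuttle, and shortened in repeated rounds of dehydrogenation, hydration, a further dehydrogenation and thiolysis, whose electrons reach the respiratory chain through electron transfer flavoprotein. In muscle the pathway is most active in slow and other oxidative fibres, and it is raised by fasting and by lack of insulin, in part through PPAR receptors, which bind pairs of the AGGTCA half-site together with RXR.

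The arrays measured the brightness of 22523 probes, with 6918 (30.7%) detected on Mock and 7235 (32.1%) on EA. Signals were background-corrected, quantile normalised and put on the log2 scale, and each difference is EA minus Mock. The 5047 genes detected on both arrays had a median difference of -0.06, with the middle of the distribution between quartiles of -0.24 and 0.14. Precision is limited by having so few arrays. Scatter between probes could be judged only where a gene had several detected probes. Over 78 such pairs the SD per probe was 0.34 in log2 difference. No member lay past 0.66, the 95% half-width of that scatter, whereas 7.59% of all genes did. Muscle fibre markers were bright on both arrays, with Acta1, the skeletal actin, at intensities of 41427.7 on Mock and 49403.2 on EA. Of the 12 listed fibre markers 8 had a probe, and these were detected on both arrays.

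The promoters of 5 members are shown because the pairs among them are neighbours in the genome whose signals can be set side by side. Hadha and Hadhb encode the subunits of the mitochondrial trifunctional protein, lie next to each other on chromosome 6 and are read from opposite strands. Their promoter windows share 200 bases. Ucp3 and Ucp2, both genes of mitochondrial uncoupling proteins, are neighbours on chromosome 1. Acadvl had the second lowest difference of the members. Each window runs from 250 bases before to 50 after the start of the gene in RefSeq on build GRCr8, printed 5′ to 3′ on the strand of the gene. Capitals mark the half-site AGGTCA, or TGACCT where it lies on the other strand.
Hadha, chr6:31907551-31907850, plus strand: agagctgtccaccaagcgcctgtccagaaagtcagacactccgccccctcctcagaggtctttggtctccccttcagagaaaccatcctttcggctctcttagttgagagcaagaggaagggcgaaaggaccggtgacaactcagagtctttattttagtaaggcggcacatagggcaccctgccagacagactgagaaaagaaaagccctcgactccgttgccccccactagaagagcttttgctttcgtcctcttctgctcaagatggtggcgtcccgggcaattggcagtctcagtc
Hadhb, chr6:31907451-31907750, minus strand: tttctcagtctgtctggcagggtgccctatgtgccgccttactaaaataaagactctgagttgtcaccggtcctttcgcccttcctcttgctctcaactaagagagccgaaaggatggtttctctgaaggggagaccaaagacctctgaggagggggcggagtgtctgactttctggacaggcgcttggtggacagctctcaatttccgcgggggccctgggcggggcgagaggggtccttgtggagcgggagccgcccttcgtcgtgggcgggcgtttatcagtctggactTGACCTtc
Acadvl, chr10:55236656-55236955, minus strand: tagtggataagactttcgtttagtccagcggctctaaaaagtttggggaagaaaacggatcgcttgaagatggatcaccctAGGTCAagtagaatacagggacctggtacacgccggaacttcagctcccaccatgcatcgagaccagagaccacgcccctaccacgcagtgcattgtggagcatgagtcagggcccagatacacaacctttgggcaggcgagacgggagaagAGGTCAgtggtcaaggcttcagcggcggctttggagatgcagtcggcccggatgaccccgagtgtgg
Ucp3, chr1:164227660-164227959, plus strand: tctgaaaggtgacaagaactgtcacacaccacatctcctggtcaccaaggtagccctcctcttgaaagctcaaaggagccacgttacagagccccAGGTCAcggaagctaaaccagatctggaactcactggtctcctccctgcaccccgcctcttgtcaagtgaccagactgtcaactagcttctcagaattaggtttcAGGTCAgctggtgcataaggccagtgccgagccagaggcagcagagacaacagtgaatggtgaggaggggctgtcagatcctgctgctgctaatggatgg
Ucp2, chr1:164251123-164251422, plus strand: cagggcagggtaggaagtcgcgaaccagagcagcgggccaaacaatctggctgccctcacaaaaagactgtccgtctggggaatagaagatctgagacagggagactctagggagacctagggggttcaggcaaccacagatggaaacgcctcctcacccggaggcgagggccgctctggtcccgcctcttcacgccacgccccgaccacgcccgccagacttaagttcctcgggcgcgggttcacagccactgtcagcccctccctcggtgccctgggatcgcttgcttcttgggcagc

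Promoter windows were found for 23 of the 29 members. Searched on both strands, the half-site AGGTCA was in 5 of these 23 windows (Acacb, Acadvl, Eci1, Hadhb and Ucp3), against 16.2% of all 33469 windows. In Acadvl it stood 169 and 17 bases before the start, and in Ucp3 155 and 50 bases before it. The paired form, 2 half-sites in direct repeat with 1 base between them, was in none of the 23 and in 0.0538% of all windows. A match is a run of letters only, and its absence from these windows says nothing of sites elsewhere.

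As a group the fatty acid genes lay slightly lower on the EA array, and no single gene differed strongly. Of the 25 detected members, 19 (76%) had a difference below 0, against 58.5% of all genes. Their median was -0.17, which is 0.12 below the median gene, with quartiles of -0.22 and -0.04 and a range from -0.50 to 0.51. No member was 1.5-fold higher, where 6.26% of all genes were, and none was 1.5-fold lower, where 3.86% were. It follows that none reached 2-fold, where 2.08% of all genes were higher and 0.456% lower. The members above 0 were Ucp2, Cd36, Lpl, Acat1, Decr1 and Etfdh.

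**Figure D1:**
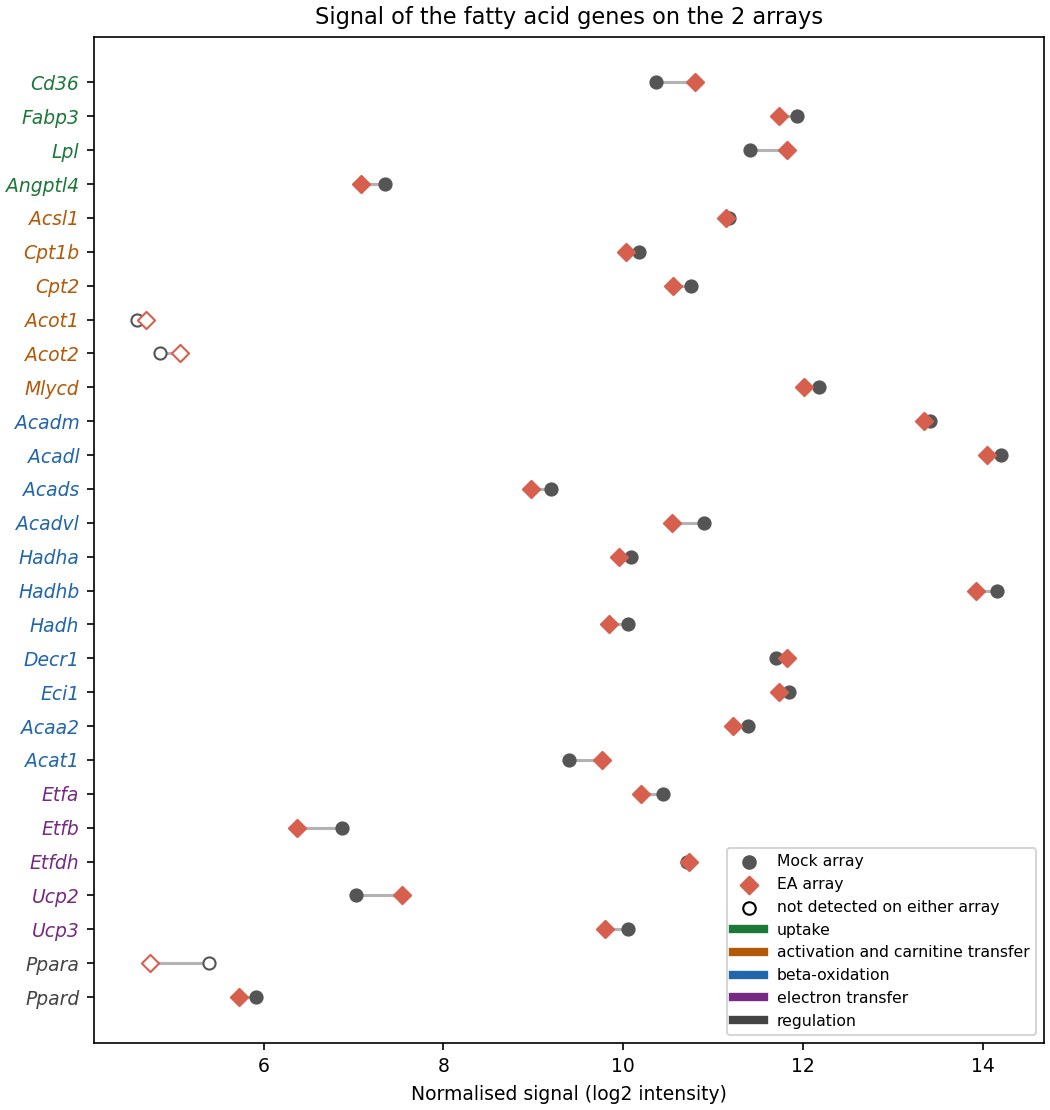
Normalised signal (log2 intensity, x axis) of the 28 members with a named probe on the Mock array (circles) and the EA array (diamonds), with gene names coloured by step and open symbols for genes detected on neither array. The diamonds lie to the left of the circles for most members, by at most 0.50 among detected genes, and to the right for the detected genes Ucp2, Cd36, Lpl, Acat1, Decr1 and Etfdh and for the undetected Acot1 and Acot2. Brightness depends on the probe, so rows cannot be ranked against each other.

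These small shifts depend on how the arrays are put on one scale. Under 8 alternative settings 23 of the 25 members kept the sign of their difference. The exceptions were Decr1 and Etfdh, which stood at -0.12 in place of 0.11 and at -0.20 in place of 0.02 when each array was scaled to its 75th percentile over all probes. That scaling moved the median gene from -0.06 to -0.19 and the median of the members to -0.34. Relative to the median gene, 18 members lay below it and 5 above it in each of the 9 settings, and Acsl1 and Etfdh lay on both sides.

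**Figure D2:**
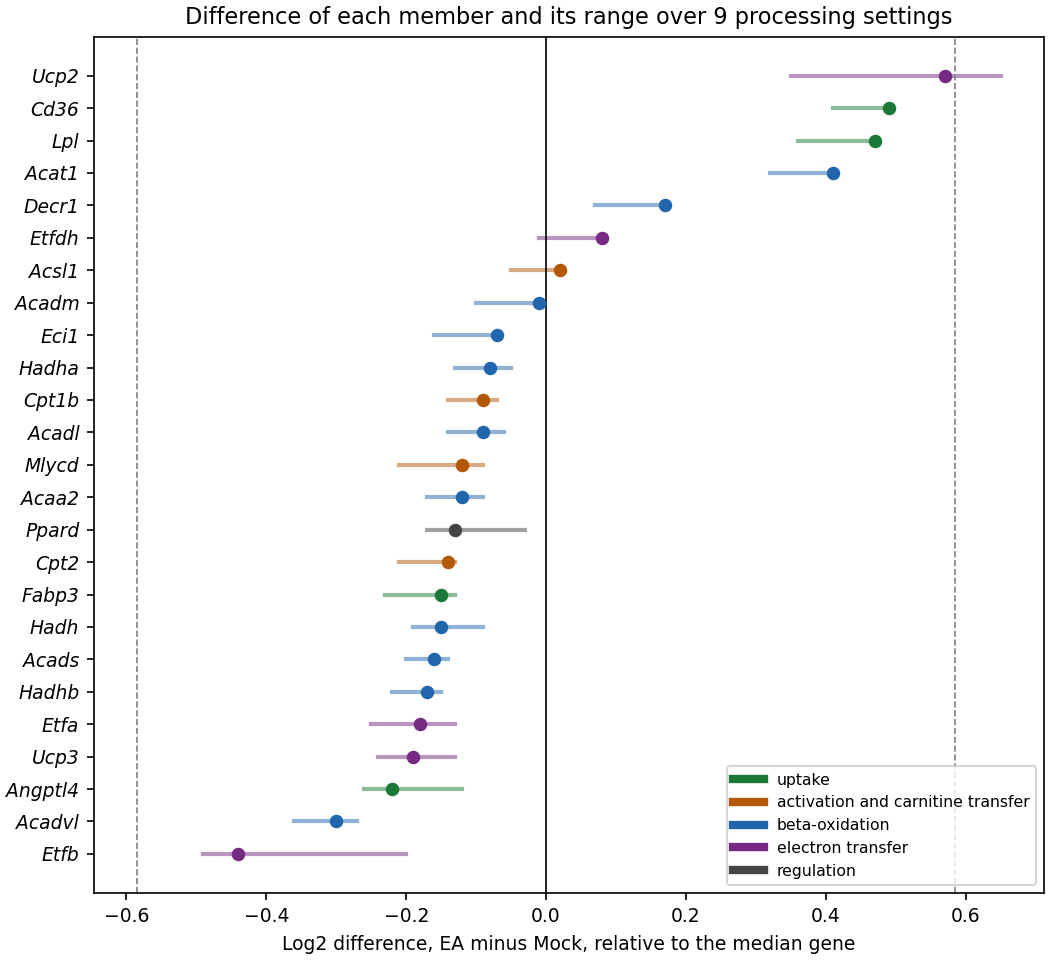
Log2 difference (EA minus Mock) of each of the 25 detected members relative to the median gene, with points for the quantile-normalised values, bars for the range over 9 processing settings, colours for the step, and dashed lines at 1.5-fold. Most bars lie wholly left of 0, those of Ucp2, Cd36, Lpl, Acat1 and Decr1 lie wholly right of it, and the bars of Etfb and Ucp2 are the longest.

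The uptake genes split into a pair that was higher on the EA array and a pair that was lower. Cd36, the fatty acid translocase of the cell membrane, had an intensity of 1423.1 on Mock and 1892.5 on EA, a log2 difference of 0.44, and 90.4% of genes lay below it. Lpl, which releases fatty acids from lipoprotein triglycerides, had 2791.1 and 3707.2, a difference of 0.41, with 89.7% of genes below it. The intensity on EA was thus 33.0% higher for Cd36 and 32.8% higher for Lpl. Fabp3, the cytosolic fatty acid-binding protein of heart and muscle, went the other way with 4005.4 on Mock and 3463.3 on EA, a difference of -0.20. Angptl4, a secreted inhibitor of lipoprotein lipase, had 258.3 and 250.05, a difference of -0.27 that was -0.13 with scaling over detected probes. Its second probe was not detected on either array (120.9 and 111.8).

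Cd36 and Lpl are also made by cells other than muscle fibres, among them adipocytes and macrophages, and Cd36 also by endothelial cells. Marker lists were measured for these cell types. In bulk RNA, fewer cells of a type and less RNA per cell cannot be told apart. Of 11 endothelial markers 6 were detected on both arrays, 5 of them above 0, with a median of 0.59, and Cdh5 and Tek on neither. Over all 9 with a probe, detected or not, the summed intensity was 1805 on Mock and 2782 on EA. The endothelial marker Gpihbp1, which anchors lipoprotein lipase to capillaries, was detected only on EA (143.3 and 171.1), at least 1.1-fold higher. Of 10 macrophage markers 3 were detected on both arrays, with a median of 0.90. Mrc1 was detected on EA alone, and Cd163, Adgre1 and Ptprc on neither. The sums over all 7 with a probe, detected or not, were 1418 and 2055. Of 9 adipocyte markers 4 were detected on both arrays, 3 of them below 0, with a median of -0.13. The sums over all 8 with a probe, detected or not, were 5140 and 5735. The adipocyte-defining Adipoq and Lep were detected on neither array. Fabp4 differed by -0.11, Lipe by -0.16 and Cidec, which was close to the limit, by -0.44. Only Cfd, the secreted protease adipsin, lay above 0, with 1069.6 on Mock and 1859.5 on EA, a difference of 0.85. The part of these cells in the values of Cd36 and Lpl was not tested.

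The 4 detected genes of activation and carnitine transfer, out of 7, were all a little lower on the EA array. Against the median gene 3 of them lay below and Acsl1 lay 0.02 above. Acsl1, the main long-chain acyl-CoA synthetase of muscle, was nearly level at 2419.9 on Mock and 2368.4 on EA, a difference of -0.04. Cpt1b, the muscle form of the rate-setting carnitine palmitoyltransferase on the outer mitochondrial membrane, had 1258.0 and 1165.3, a difference of -0.14. Cpt2, its partner on the inner membrane, had 1839.0 and 1617.9, a difference of -0.20. Mlycd, which removes the malonyl-CoA that inhibits CPT1, had 4809.5 and 4205.0, a difference of -0.17. These 4 differences are smaller than the SD of 0.34 between probes of a gene. Acot1 and Acot2, neighbouring genes of thioesterases that split acyl-CoA in the cytosol and in mitochondria, read 104.4 and 116.5, and 120.1 and 136.1, with detection p from 0.1321 to 0.8582.

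Among the beta-oxidation genes, 9 of 11 lay below 0 and also below the median gene. The acyl-CoA dehydrogenases carry out the first step of each round and divide the work by chain length. Acadvl, for very long chains, had 2003.5 on Mock and 1595.6 on EA, a difference of -0.36, and 14% of genes lay lower. Acadl, for long chains, had 18818.0 and 17178.1, a difference of -0.15, and Acadm, for medium chains, 11100.1 and 10441.8, a difference of -0.07. Acads, for short chains, had 676.1 and 626.7, a difference of -0.22. All 4 dehydrogenases were lower on EA, with a median of -0.18, and the differences did not follow chain length in order.

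Trifunctional protein carries out the later steps for long chains, and its subunit genes differed alike. Hadha had 1185.7 on Mock and 1105.0 on EA, a difference of -0.14, and Hadhb 18521.1 and 16116.1, a difference of -0.23. Hadh, the dehydrogenase for shorter 3-hydroxyacyl chains, had 1149.8 and 1033.8, a difference of -0.20. Acaa2, a thiolase that closes the round, had 2761.4 and 2489.2, a difference of -0.17. The differences of these 4 genes lay between -0.14 and -0.23. The auxiliary enzymes of unsaturated fatty acids were split, with the isomerase gene Eci1 at 3825.3 and 3457.8, a difference of -0.12, and the reductase gene Decr1 at 3483.8 and 3694.0, a difference of 0.11 that turned to -0.12 under the scaling over all probes. Acat1, a thiolase of ketone body and isoleucine breakdown rather than of the long-chain rounds, was the exception at 772.3 and 982.9, a difference of 0.36 with 87.9% of genes below it.

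Electron transfer flavoprotein passes electrons from the dehydrogenases to the respiratory chain. Etfa, its alpha subunit, had 1494.1 on Mock and 1284.4 on EA, a difference of -0.24. Etfb, the beta subunit, had 211.2 and 195.4, a difference of -0.50 that was the lowest of all members, with 6.66% of genes below it. Its signals lay only 1.08 and 0.71 above the lowest detected signal of their arrays, and the difference was -0.24 without background correction and -0.30 with the values the authors deposited. Etfdh, the oxidoreductase that hands the electrons to ubiquinone, was level at 1787.8 and 1792.4, a difference of 0.02, which was -0.20 under the scaling over all probes. The subunits of the flavoprotein lay close without background correction, where Etfa was at -0.22. They lay further apart with the deposited values, where Etfa was at -0.17. With Etfb this dim, their amounts cannot be compared.

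The uncoupling proteins, grouped with electron transfer as carriers of the inner mitochondrial membrane, lay on opposite sides of 0. Ucp2, which many tissues and macrophages express, had 224.7 on Mock and 301.1 on EA, a difference of 0.51 and the highest of the members, with 92.4% of genes below it. Its difference was 0.31 without background correction and 0.66 with scaling over detected probes, the only setting in which a detected member passed 1.5-fold. Ucp3, the muscle form, had 1147.5 and 1006.5, a difference of -0.25.

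Of the PPAR receptors that control these genes, only Ppard was detected, close to the limit at 158.6 on Mock and 163.0 on EA with a detection p of 0.008485 on both arrays. Its difference of -0.19 was -0.07 without background correction. Before normalisation its intensity was 2.7% higher on EA, opposite in sign to these differences. Ppara read 140.2 with a detection p of 0.05333 on Mock and 119.3 with 0.6036 on EA, so its level was not measured on either array at this threshold.

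**Figure D3:**
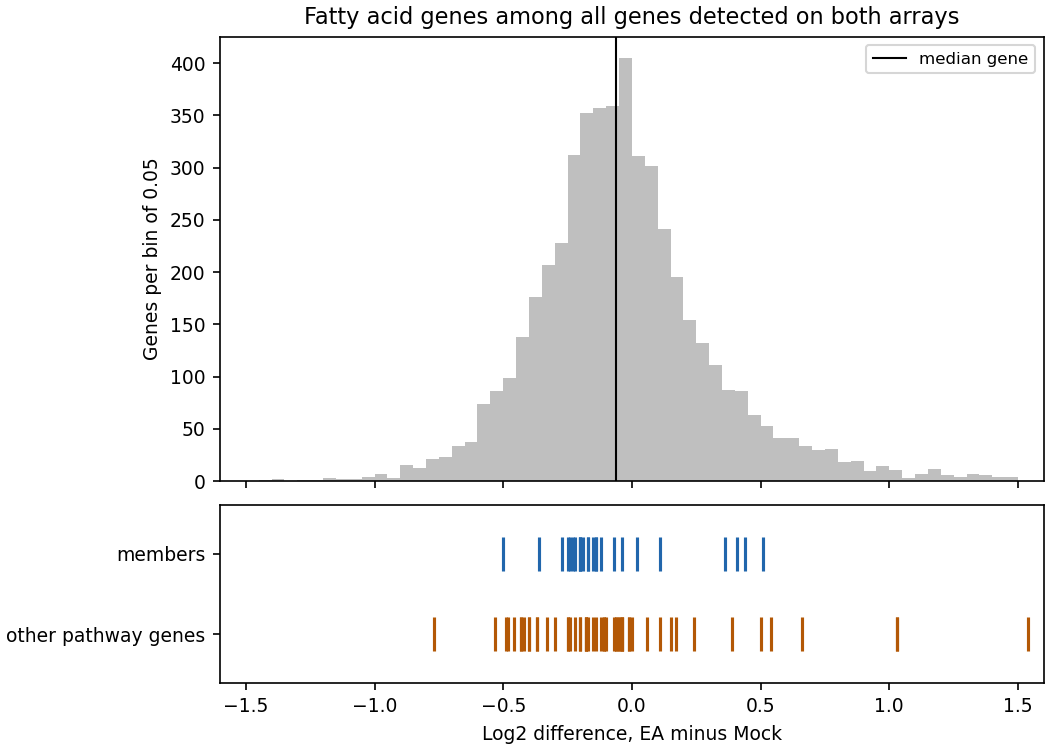
Number of genes per bin of log2 difference (EA minus Mock) for the genes detected on both arrays, with the median gene as a line (upper panel), and the 25 members and 53 other pathway genes as ticks (lower panel). The bars of the upper panel leave out 48 genes beyond 1.5 in either direction. The members sit within the bulk of the distribution, between -0.50 and 0.51, most of them left of the median gene.

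The rest of the pathway was followed in a list of 83 further genes, of which 53 were detected on both arrays. Of these, 40 (75.5%) lay below 0, with a median of -0.12. At 1.5-fold 4 (7.55%) were higher and 1 (1.89%) was lower, shares close to the 6.26% and 3.86% of all genes. Among other genes of activation and carnitine handling, 12 of 13 lay below 0, with a median of -0.22. Crat, carnitine acetyltransferase, was lowest at 2436.2 on Mock and 1801.5 on EA, a difference of -0.46 that was -0.11 when its probes were averaged. The thioesterase gene Acot7 followed at -0.43. The highest were Acsl5, an acyl-CoA synthetase, at 0.24 and Slc22a5, the plasma membrane carnitine transporter, at -0.01. Without background correction the dim Acot7 and Acsl5 were at -0.20 and 0.10. Among other mitochondrial beta-oxidation and branched-chain genes, 9 of 11 lay below 0, with a median of -0.25. Acad10, an acyl-CoA dehydrogenase family member, had 314.4 and 243.9, a difference of -0.77 and the only one of the 53 that was 1.5-fold lower. It was short of 1.5-fold at -0.47 without background correction and -0.49 with the values the authors deposited. Its relative Acad9, also an assembly factor of complex I, differed by -0.53. The highest were Pccb, a propionyl-CoA carboxylase subunit, at 0.39 and Hsd17b10 at 0.00. Pccb was barely detected on Mock, at 155.0 with a detection p of 0.009697, and its difference was 0.15 without background correction. Peroxisomal genes had a median of -0.14 with 8 of 10 below 0, from the thiolase Acaa1a at -0.37 and the thioesterase Acot8 at -0.24 to Crot, carnitine octanoyltransferase, at 0.06 and Abcd3, a peroxisomal membrane transporter, at 0.54. Of the ketone body list only Acat2 was detected, at -0.04.

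The 4 genes of this wider list that were 1.5-fold higher on the EA array were Pdk4, Lpin1, Plin2 and Nrip1. Pdk4, the kinase that shuts off pyruvate dehydrogenase and so spares glucose, had 575.6 on Mock and 1513.9 on EA, a difference of 1.54 (1.17 with the values the authors deposited). Lpin1, a phosphatidate phosphatase and coactivator of PPARs, had 253.3 and 440.9, a difference of 1.03 (0.68 as deposited). Plin2, a coat protein of lipid droplets, had 241.5 and 413.4, a difference of 1.03 (0.67 as deposited). Lpin1 and Plin2 were dim on Mock, 1.52 and 1.41 above its lowest detected signal. Without background correction they stood at 0.70 and 0.68. Nrip1, a corepressor of oxidative metabolism, had 377.3 and 564.6, a difference of 0.66, which was 0.48 as deposited, 0.51 without background correction and 0.53 with scaling over all probes, each short of 1.5-fold. The same lists held genes that were lower, among them Plin5, the droplet coat of oxidative tissue, at -0.43, the acyl-CoA-binding protein gene Dbi at -0.33, the transcription factor Klf15 at -0.42 and the AMPK subunit Prkaa2 at -0.20. Of these, Plin5 and Prkaa2 were dim and stood at -0.20 and -0.10 without background correction. Vldlr, a lipoprotein receptor, was at 0.17.

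**Figure D4:**
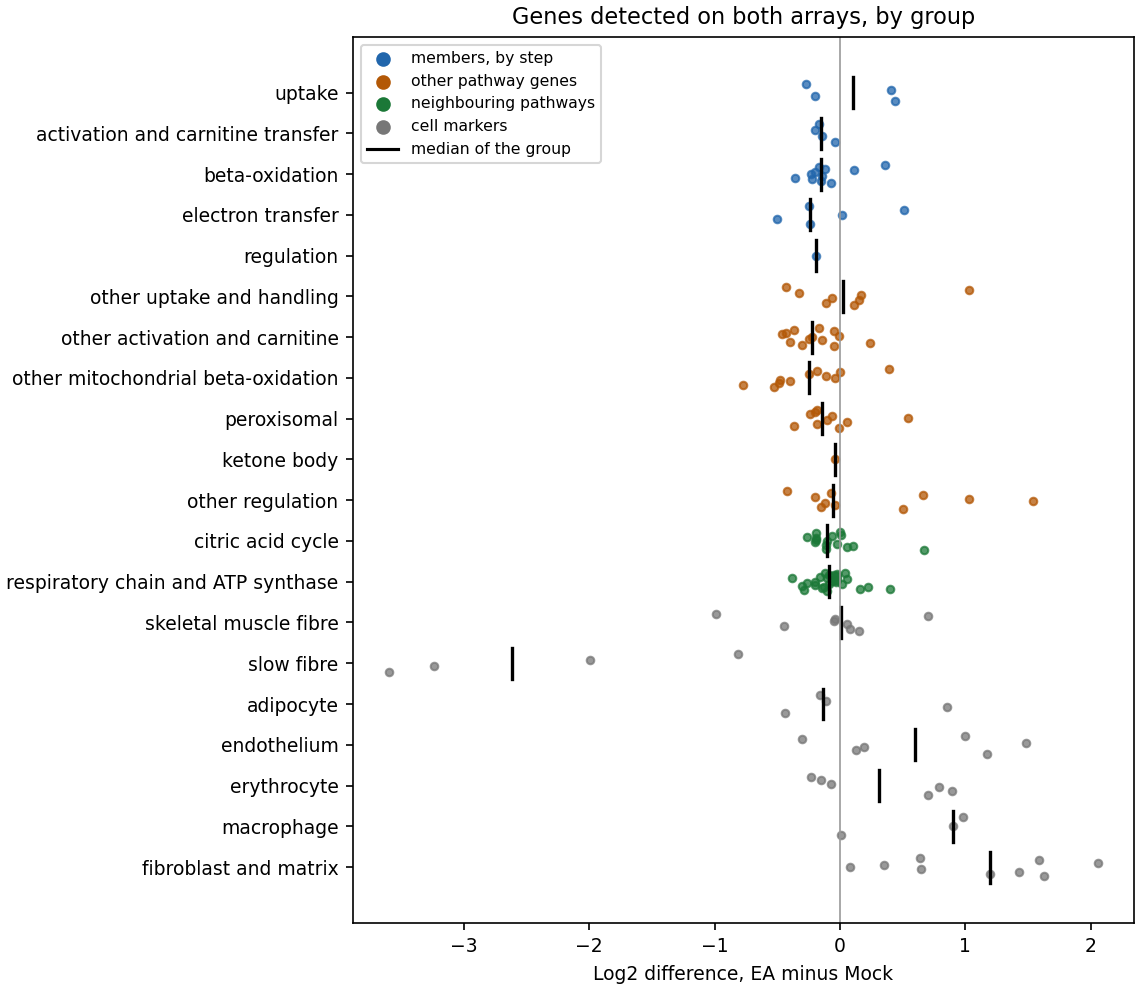
Log2 difference (EA minus Mock, x axis) of single genes detected on both arrays (points) and the median of each group (vertical bars), for the members by step, other pathway genes, neighbouring mitochondrial pathways and cell markers. The neighbouring pathways and all steps but uptake, whose median is 0.10, have medians just left of 0, slow fibre markers lie far to the left with a median of -2.62, and matrix markers to the right with a median of 1.20.

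Other mitochondrial pathways were set beside the members. Of 15 detected citric acid cycle genes 10 (66.7%) were below 0, with a median of -0.10, and of 27 detected genes of the respiratory chain and ATP synthase 21 (77.8%) were, with a median of -0.09, against 58.5% of all genes below 0. Against the median gene the split was 9 below and 6 above for the citric acid cycle, and 15 below and 12 above for the respiratory chain. Relative to the median gene these medians were -0.05 and -0.03, against -0.12 for the fatty acid members. Under both scalings to the 75th percentile the citric acid cycle was at -0.12 and the respiratory chain at -0.07, against -0.14 for the members. With 1 array per group the difference between the lists has no test. Cs, citrate synthase, went the other way at 356.4 and 534.4, a difference of 0.67.

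Markers of slow fibres, which are rich in fatty acid oxidation, were much lower on the EA array than the members were. All 8 had a probe, and the 4 detected on both arrays ran from Atp2a2, the slow calcium pump, at -0.81 to Myh7, the slow myosin heavy chain, at 2350.8 on Mock and 300.4 on EA, a difference of -3.60. The summed intensity of the list was 7985 on Mock and 3031 on EA. Tnnt1 and Myl3 were detected on Mock alone, at least 6-fold and 8.48-fold lower on EA, and Tnni1 and Myl2 on neither array. Mb, the oxygen store of oxidative fibres, differed by -0.45, and Myh2, the myosin of fast oxidative fibres, had 1031.4 on Mock and 590.6 on EA, a difference of -0.99. Myh4, the myosin of the fastest fibres, had 6395.4 and 10417.8, a difference of 0.70. The other 4 fibre markers examined, Tnnt3, Actn3, Tnnc2 and Ckm, lay between -0.05 and 0.08, and Acta1 was at 0.15. Matrix markers lay on the other side, with 9 of 9 detected, all above 0, and a median of 1.20. Their summed intensities were 12297 on Mock and 21706 on EA. Of 9 erythrocyte markers 6 were detected on both arrays, 3 above 0 and 3 below, with a median of 0.31. Hbb, Hbb-b1 and Hba-a1 were at 0.70, 0.89 and 0.79, and Hba-a3, Ahsp and Gypc at -0.07, -0.15 and -0.23. Over all 9 erythrocyte markers, detected or not, the sums were 21147 and 34077. The part of fibre type and of these other cells in the values of the fatty acid genes was not tested.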

How the data were processed

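Biotin-labelled cRNA was hybridised to Illumina rat bead arrays, 1 for Mock and 1 for EA. The deposited non-normalized table holds each probe's linear intensity, neither background-subtracted nor normalized. It also holds a detection p-value, per the file headers. The second deposited table holds intensity values processed by the authors with a method not given in the sources used here. It was used as an alternative. Each detection p-value column was matched to the intensity column it follows, of which it is a strict function.

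Background was corrected with limma's nec (limma 3.58.1, R 4.3.3), using the detection p-values and an offset of 16, followed by quantile normalisation and log2. Python 3.11.15 did the rest. These steps were tested on simulated data with known folds. Of 22523 probes, 13793 had 1 gene symbol in the platform annotation, none had several and 8730 had none here. Symbols were updated to RefSeq of GRCr8, of which 13752 matched on gene identifier, 5 matched on accession and 36 stayed as they were, and no member probe was renamed. A gene took its brightest probe. A gene detected on 1 array got a bound against the higher of its dim signal and the lowest detected signal of that array.

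No test was made, with 1 array per group. All members are accounted for. Other pathway genes are named if past 1.5-fold or among the 2 highest or 2 lowest of their group. Members and lists were chosen with earlier results of these data known. Alternatives were no background correction, the deposited values, scaling to the 75th percentile, an offset of 50, detection p under 0.05, no filter, and the mean of a gene's probes. Scaling over detected probes was added after seeing the data.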

Additional observations from a re-analysis of the deposited data

How the results depend on the processing

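No paired analysis was possible because each group has 1 array. The median of the fatty acid genes relative to the median gene lay between -0.15 and -0.08 in all 9 settings, and 18 to 20 of them lay below the median gene. The median itself, -0.17, lay between -0.17 and -0.12 in the other settings except scaling to the 75th percentile over all probes, where it was -0.34 and the median gene moved from -0.06 to -0.19. With scaling over detected probes, chosen after seeing the data, the median gene was 0.01, and 1 member (Ucp2) passed 1.5-fold higher. Without a filter on dim probes 1 member (Ppara, not detected) passed 1.5-fold lower. For all genes, 316 were 1.5-fold higher and 195 lower (61.8% higher). Leaving out background correction gave 159 and 45 (77.9% higher), the deposited values 159 and 44 (78.3% higher), no filter 531 and 336, scaling over all probes 249 and 383 (39.4% higher), and scaling over detected probes 436 and 108 (80.1% higher). With an offset of 50 there were 235 and 102. The cause of these changes was not tested. Genes close to the lowest detected signal are limited by the background. Among them were the members Etfb, Ucp2, Angptl4 and Ppard and the other pathway genes Pccb, Acot7, Plin5, Acsl5 and Prkaa2. Lpin1 and Plin2 were also dim on Mock.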

Other observations

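The member promoters were also searched, on both strands, for the GC box GGGCGG and the CCAAT box, elements of many housekeeping promoters. The GC box was in 13 of 23 member windows, among them Acadm, Cpt2, Etfb, Etfdh, Hadha, Hadhb and Mlycd, against 33.1% of all windows. The GC box of Hadha lies in the stretch that its window shares with Hadhb, so that site is in both windows. The CCAAT box was in 10 of 23, among them Acads, Acsl1, Etfa and Hadha, against 37.5%. The letters TATAAA were in the windows of Angptl4 and Cd36, against 14.2% of all windows. These are counts of letters in windows of 300 bases and were not tested.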
